A study of Mus musculus with 15 samples.

Results

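Broad H3K4me1/2 regions are long stretches of chromatin that carried methylated lysine 4 of histone H3 in every ChIP library of the study. They were chosen by position alone. Peaks from all 6 lists that shared 1 base or more were merged, and a merged region was kept if it held a peak of each of the 6 lists, was at least 3000 bases long and lay on an autosome. The rule selected 1361 regions out of 24407 autosomal regions that held a peak of every list (5.58%), and out of 39519 autosomal regions in all. Length and presence in all lists are therefore properties used by the rule, and they are given below as a description. The vector carried by the cells was not used by the rule, which treated the 6 lists alike.

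The cells were mouse lymphoma cells taken from tumours and enriched with microbeads for B220, a surface marker of B cells. Tumours of the control group carried an empty vector (EV), and those of the other group a short hairpin RNA that targets Kmt2d, called sh-Kmt2d. The labels give no strain, age, sex or founding oncogene, and they do not say whether any libraries came from 1 animal, so that spread between lists may be partly technical. Chromatin immunoprecipitation used 1 antibody that reads both the mono- and the dimethylated form (H3K4me1/2), so the forms cannot be told apart, and gave 3 EV and 3 sh-Kmt2d lists. RNA was sequenced from 4 EV libraries and 5 sh-Kmt2d libraries. The first number in the titles of the ChIP libraries was 87 for all 3 EV lists, 103 for sh-Kmt2d list 1 and 110 for sh-Kmt2d lists 2 and 3. Whatever that number stands for cannot be told apart from the vector.

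Methylation of lysine 4 of histone H3 marks active and poised regulatory DNA. The monomethylated form is typical of enhancers, the dimethylated form is found at enhancers and around promoters, and the trimethylated form marks active promoters. KMT2D, also called MLL4, is a methyltransferase that places the monomethyl mark at enhancers in many cell types, and mutations of its gene are frequent in human lymphomas of B cells. Long stretches of lysine 4 methylation and runs of neighbouring enhancers are often found near genes that define a cell type. The lists are in mm9 coordinates, for which no annotation was used here, so the regions below are named by position and not by gene, and no sequence is printed.

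The RNA libraries served only as a check of the labels. They held 5925745 to 29284830 counts on genes, the fewest in sh-Kmt2d RNA replicate 5. The 10 B cell markers used, among them Cd79a, Cd79b and Pax5, all stood at 10 CPM (counts scaled to the library's total on genes) or more in all 9 libraries, the lowest being Ebf1 at 15.5 CPM. The 7 T cell markers together came to 111 to 185 CPM in EV and 183 to 330 CPM in sh-Kmt2d, and the 7 macrophage markers to 168 to 637 and 141 to 220 CPM. Most of the T cell sum was Lck, at 80.68 to 233.3 CPM, and the T cell markers did not move together. Cd3g was higher in sh-Kmt2d, at 23.11 to 70.63 CPM against 4.503 to 10.61. Cd4 was lower, at 1.181 to 6.556 CPM against 8.183 to 23.11. In the other T cell markers the groups overlapped. Kmt2d itself stood at 544.9, 283.2, 526.9 and 104.2 CPM in the EV libraries and at 61.43, 50.4, 225.1, 18.79 and 5.231 CPM in the sh-Kmt2d libraries. The groups overlapped, because sh-Kmt2d RNA replicate 3 lay above EV RNA replicate 4. The 2 libraries with the least Kmt2d, sh-Kmt2d RNA replicates 4 and 5, also stood apart in some B cell markers: Ptprc was at 672.8 and 56.53 CPM there, against 1366 to 1980 CPM in the other 7, and Ebf1 at 107.7 and 15.53 CPM, against 198.9 to 297.6. Cd79b was higher in them, at 5417 and 10670 CPM, against 1786 to 4187. In Ms4a1, Blk and Cd37 replicate 4 lay within the range of the other 7 libraries and replicate 5 did not. The part of these shifts in the Kmt2d values was not tested. Titles are shared between sh-Kmt2d RNA replicate 3 and sh-Kmt2d list 1, and between EV RNA replicate 4 and EV list 3. The RNA library that shares its title with sh-Kmt2d list 3, sh-Kmt2d RNA replicate 4, had 18.79 CPM of Kmt2d. No RNA library shares a title with sh-Kmt2d list 2, so Kmt2d could not be looked up for it. The labels do not say whether a shared title means a shared tumour.

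The broad regions ran from 3000 to 21099 bases, with a median of 3835. Most were close to the lower limit: 25% were shorter than 3321 bases, 604 (44.4%) reached 4000 bases, 295 (21.7%) reached 5000, 53 (3.89%) reached 8000 and 20 (1.47%) reached 10000. Together they spanned 5.96 Mb, which was 17.1% of the bases in regions shared by all lists. The other 23046 shared regions had a median of 1126 bases.

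At the limit of 3000 bases the lengths formed a continuous series. Just inside lay chr17:35957774-35960774 (3000 bases), chr10:67701236-67704237 (3001 bases) and chr17:36155721-36158722 (3001 bases). Just outside lay chr7:52093412-52096409 (2997 bases), chr3:89083140-89086136 (2996 bases) and chr6:120863965-120866961 (2996 bases). Regions on either side of the limit differed in how fully the lists filled them. In chr10:67701236-67704237 the lists covered 2945, 2963 and 2903 bases in EV and 2873, 3001 and 2856 bases in sh-Kmt2d, whereas in chr17:35957774-35960774 they covered 2933, 2813 and 2366 bases in EV and 2408, 2626 and 2065 in sh-Kmt2d. The region chr7:52093412-52096409, just outside and so no broad region, was covered for 2745, 2589 and 1825 bases in EV and for 369, 1840 and 298 bases in sh-Kmt2d.

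To see how much of each broad region was common to all lists, the bases that lay inside a peak of every list were counted as its core. The core took a median of 71.3% of a broad region's length, or 2713 bases. In 532 regions the core alone reached 3000 bases. In 88 regions it filled at least 90% of the length, in 202 it filled less than 50%, and in 1 region it was 0. Over all broad regions, 69.4% of the bases lay in peaks of all 6 lists, 9.34% in peaks of 5 and 4.46% in a peak of a single list. For the other shared regions the shares in 6 lists and in 1 list were 60.1% and 7.87%.

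The core ranged from almost the whole region to nothing, as 2 regions singled out after their values were seen show. The region chr13:21258599-21262030 (3431 bases) was 1 peak in each of the 6 lists, with 3365, 3412 and 3382 bases covered in EV and 3370, 3400 and 3337 bases in sh-Kmt2d, and its core of 97.3% was the fullest of all broad regions. At the other end, chr9:116043981-116047248 (3267 bases) held 20 peaks and had no base common to the 6 lists. It was covered for 2770, 2700 and 2470 bases in EV and for 228, 1903 and 499 bases in sh-Kmt2d, so that sh-Kmt2d list 2 lay nearer to the EV lists than to the other sh-Kmt2d lists. The log2 difference of -1.97 ± 0.63 (SE), relative to each list's median, missed the threshold of the test described below (limma, adjusted p = 0.407).

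The longest broad region was chr5:66245020-66266119, at 21099 bases. The EV lists covered 19112, 19714 and 18484 of its bases and the sh-Kmt2d lists 17976, 18884 and 19533, with 43 peaks in all, the most of any broad region, and a core of 15930 bases, the largest. The groups overlapped. Next came chr16:19231074-19246638 (15564 bases), with 13170, 14086 and 12693 bases covered in EV and 13874, 15324 and 15174 in sh-Kmt2d. It was listed as 5, 5 and 6 peaks in EV and as 4, 1 and 3 in sh-Kmt2d, so that the sh-Kmt2d lists held it in fewer pieces. The region chr18:55137651-55152995 (15344 bases) was covered for 15034, 12959 and 12365 bases in EV and for 12246, 10889 and 11261 bases in sh-Kmt2d. Here every sh-Kmt2d list lay below every EV list, but the log2 difference of -0.06 relative to each list's median did not pass the test. By number of peaks it was the third, with 34.

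The remaining 7 of the 10 longest were between 11313 and 14264 bases. In chr1:140058565-140072829 (14264 bases) the EV lists covered 12751, 12255 and 12395 bases in 8, 6 and 6 peaks, and the sh-Kmt2d lists 12482, 14147 and 13126 bases in 7, 1 and 4 peaks. In chr19:11556302-11569913 (13611 bases) the covered bases were 13032, 13036 and 12772 in EV, against 13479, 13611 and 13281 in sh-Kmt2d. All 3 sh-Kmt2d lists lay above the EV lists there, and the core of 12558 bases was 92.3% of the region. A similarly full region was chr1:53828690-53841598 (12908 bases), which the 6 lists held in only 8 peaks, with a core of 11892 bases and with 12368, 12501 and 12044 bases covered in EV and 12261, 12647 and 12734 in sh-Kmt2d.

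In the next 3 long regions the lists of both vectors overlapped. They covered 11246, 10789 and 12745 bases (EV) and 12151, 11735 and 10811 bases (sh-Kmt2d) of chr16:43498442-43511712, which had the fifth largest core, 10137 bases. The values were 11204, 10327 and 11859 (EV) and 11066, 10685 and 9792 bases (sh-Kmt2d) for chr13:63893523-63905382. Of chr13:83703375-83714828 the EV lists covered 11043, 10168 and 11272 bases and the sh-Kmt2d lists 11076, 10911 and 10023. The last, chr16:38451856-38463169, was covered for 10081, 9599 and 10895 bases in EV and for 8095, 9646 and 8179 bases in sh-Kmt2d, and sh-Kmt2d list 2 again lay within the EV range.

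**Figure D1:**
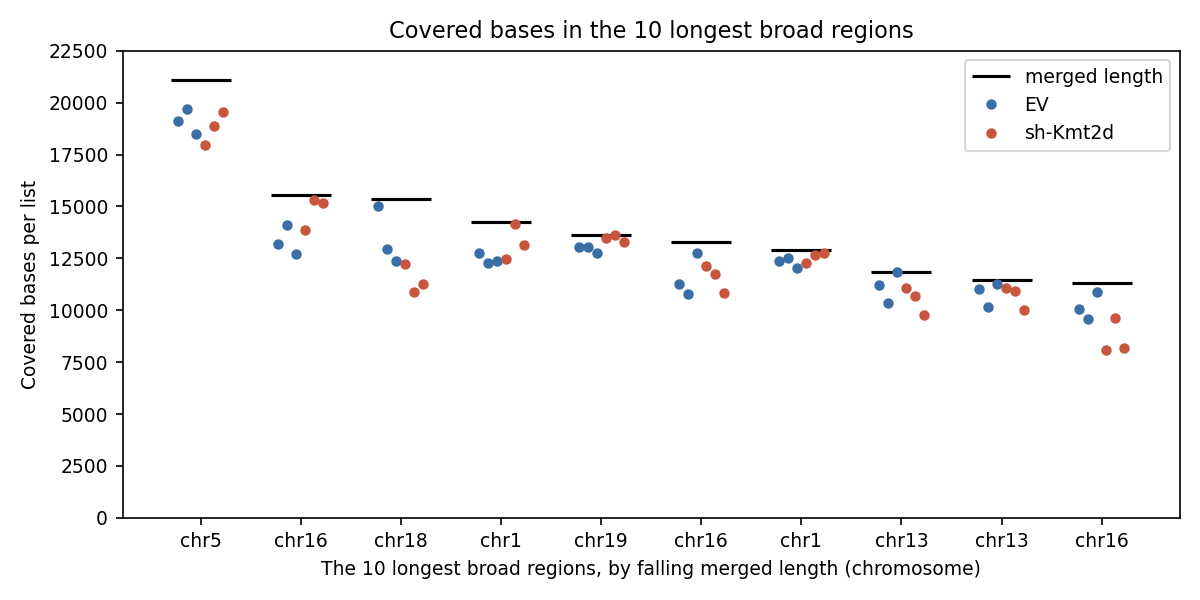
Bases covered by each list in the 10 longest broad regions, in order of merged length. Each point is 1 list (EV or sh-Kmt2d) and the black line gives the merged length; in the longest region all 6 lists covered between 17976 and 19714 of 21099 bases.

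Besides length, the broad regions were set beside the other shared regions in measures that the rule did not use directly. Each peak carries a signal, a whole number in the authors' lists that was ranked only within its own list. The highest peak of a broad region stood at a median percentile of 87.6, 86.8 and 87.6 among all peaks of EV lists 1 to 3 and of 85.7, 87.4 and 85.9 in sh-Kmt2d lists 1 to 3. The corresponding medians for the other shared regions were 64.6, 63.5 and 63.8 in EV, against 61.5, 63.5 and 59.7 in sh-Kmt2d. A region that holds more bases has more chances to hold a high peak, so the gap is a description and was not tested.

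A high signal was common among broad regions but not shared by all. Between 39.9% and 43.0% of them had a peak in the top 10% of a list, against 12.7% to 13.3% of the other shared regions. In 346 broad regions (25.4%) this held in all 6 lists, and in 561 (41.2%) in none. Only 6 (0.441%) stood below the median of every list. Length and top signal went together weakly among broad regions, with Spearman coefficients of 0.187 to 0.238 in the 6 lists. The points of such a coefficient are the 1361 regions of 1 list.

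Within broad regions the position of the highest signal moved more between lists than in other shared regions. The lists have no header, and the sixth column, which lay inside the peak in every row, was read as the position of the highest signal. This reading is not stated by the authors, and the results on positions rest on it. The positions of a region's strongest peak in the 6 lists were compared. In broad regions they lay within a median span of 517 bases, and in the other shared regions within 207 bases. The span was at most 200 bases in 307 broad regions (22.6%) and more than 2000 bases in 180 (13.2%). As a share of length the order turned round, with a median of 12.5% in broad and 19.5% in other shared regions.

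Even long broad regions differed in how close these positions lay. In chr10:94379214-94386499 (7285 bases), which the lists held in 32 peaks, all 6 positions lay within 92 bases. In chr1:53828690-53841598 they lay within 298 bases, although the region is 12908 bases long. The widest span was 9038 bases, in chr16:38451856-38463169. The highest point of a broad region often lay off centre: in 37.5% of list and region pairs it was in the outer 25% at either end of the region, against 14.5% in other shared regions, and its median distance to the nearer end was 29.6% of the length, against 38.0%.

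**Figure D2:**
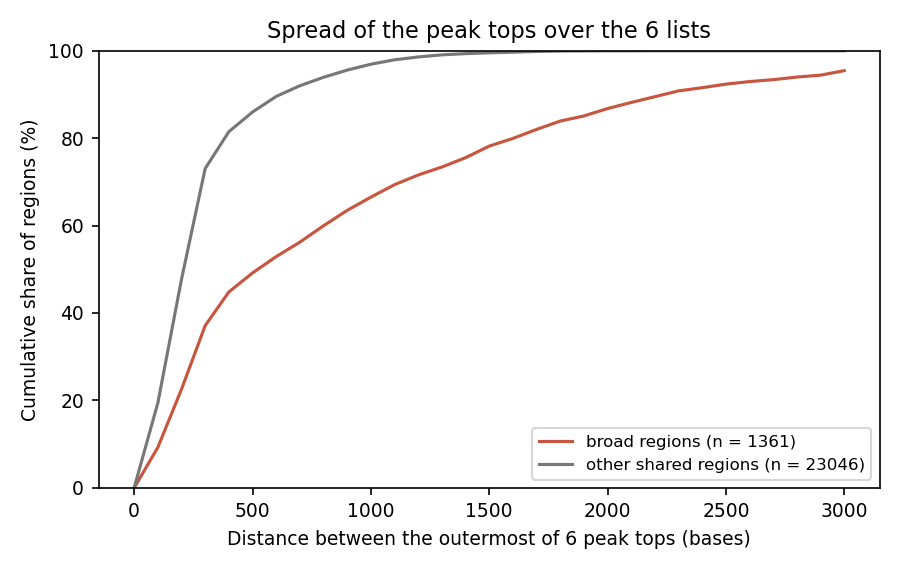
Share of regions (y axis, percent) whose positions of highest signal in the 6 lists lie within a given span (x axis, bases), for broad and for other shared regions. At 500 bases the curve of the broad regions is at 49.2% and that of the other shared regions at 86.0%.

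The positions did not separate the vectors. The median distance between the positions of 2 lists in a broad region was 97 to 145 bases for pairs of EV lists, 81 to 102 for pairs of sh-Kmt2d lists and 96 to 173 for pairs across the vectors. The ranges overlapped.

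The broad regions lay on every autosome, from 47 on chromosome 18 to 117 on chromosome 1. As a share of the shared regions of a chromosome they ran from 4.81% (chromosome 4) to 7.31% (chromosome 1). Set against expressed genes (at least 1 CPM in all 9 RNA libraries, assigned to chromosomes by symbol), there were 10.6 per 100 genes on chromosome 7 and 20.1 per 100 on chromosome 13. Across the 19 autosomes the number of broad regions went with the number of shared regions (Spearman 0.936) and of expressed genes (0.809). Chromosome length was not taken into account, and its part in these coefficients was not tested.

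Part of the broad regions stood in groups, but shared regions of any length lay close together. Another shared region lay within 10000 bases of 75.5% of broad and of 68.1% of other shared regions. The median distance from a broad region to the next broad region was 139078 bases. Within 10000 bases of another broad region lay 236 of them (17.3%), which formed 110 groups, 11 of them with 3 regions or more. The largest such group held 6 broad regions with 33581 bases in a span of 52320 bases on chromosome 1 (chr1:140020509-140072829). It ended with chr1:140058565-140072829, one of the 10 longest, which began 51 bases after chr1:140054246-140058514. The smaller neighbour, named after its values were seen, was covered for 3786, 2328 and 3652 bases in EV and for 2959, 4184 and 3673 bases in sh-Kmt2d, and its top signal stood only at percentiles 39.6 to 51.4 of the lists, whereas that of the long region stood at 95.0 to 99.4.

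With a reach of 50000 bases, 481 broad regions (35.3%) had a neighbour. The group with the most bases covered chr6:48624627-48722301, where 7 regions added up to 38426 bases in a span of 97674 bases. Of these 7, named after their values were seen, chr6:48667832-48674120 was covered for 6116, 5983 and 6108 bases in EV and for 4204, 5409 and 4561 bases in sh-Kmt2d. Every sh-Kmt2d list lay below every EV list there. The log2 difference was -0.20 relative to each list's median (limma adjusted p = 0.424) and -0.37 as listed. The order was the opposite in chr6:48694769-48698497, with 3548, 3452 and 3363 bases in EV and 3684, 3614 and 3686 bases in sh-Kmt2d. Its log2 difference was 0.25 relative to each list's median (limma adjusted p = 0.429) and 0.08 as listed. With bases as listed the groups overlapped in the other 5. A further 7 regions with 34412 bases lay in chr17:34279240-34465889.

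The presence of a broad region in a list that had no part in choosing it was then checked. Each list was left out in turn and the rule was applied to the other 5, which gave 1180 to 1354 broad regions. The left-out list had a peak in all but at most 1 of them, which was also the case for 94.8% to 99.7% of the shorter regions. The length held less well. The left-out list covered a median of 91.9%, 94.4% and 90.3% of the length for EV lists 1 to 3 and of 82.6%, 94.2% and 81.0% for sh-Kmt2d lists 1 to 3. At least 3000 bases were covered in 73.3%, 77.4% and 68.7% of the regions by the EV lists, and in 54.5%, 77.9% and 52.1% by the sh-Kmt2d lists. In each of these measures sh-Kmt2d list 2 stood with the EV lists, and sh-Kmt2d lists 1 and 3 stood below.

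Next, EV and sh-Kmt2d lists were compared over the 1361 regions. Of the merged bases of the broad regions, EV lists 1 to 3 covered 89.9%, 91.7% and 87.8%, and sh-Kmt2d lists 1 to 3 covered 80.5%, 92.0% and 78.5%. In bases this was 5.35 ± 0.118 Mb in EV and 4.99 ± 0.436 Mb in sh-Kmt2d (SD, n = 3 each; exact two-sided permutation p = 0.4, where 3 lists against 3 cannot go below 0.1). The groups overlapped, and the spread within sh-Kmt2d was larger than the difference of -0.365 Mb. Over the whole autosomes the lists covered 32.8, 33.8 and 32.0 Mb in EV and 27.3, 33.2 and 25.6 Mb in sh-Kmt2d, so the same lists were short within and outside broad regions. The part of that overall difference in the results on coverage was not tested.

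Relative to their own totals, the sh-Kmt2d lists had more of their bases in broad regions. The shares were 16.4%, 16.2% and 16.4% in EV, against 17.6%, 16.5% and 18.3% in sh-Kmt2d, or 16.3 ± 0.103% against 17.5 ± 0.881% (SD, n = 3 each). The groups did not overlap, and the exact two-sided permutation p of 0.1 is the smallest that 3 lists against 3 allow. The list closest to EV was again sh-Kmt2d list 2. The 2 lists with the fewest covered bases had the highest shares. The other shared regions showed the same order, with 75.5%, 74.9% and 75.2% of a list's bases in EV and 77.9%, 75.7% and 78.8% in sh-Kmt2d. A higher share in the sh-Kmt2d lists was thus not particular to broad regions.

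As a share of length, the difference in mean coverage between vectors was smaller the longer the region was. In shared regions shorter than 1000 bases the lists covered a mean of 83.7% in EV and 74.8% in sh-Kmt2d, a difference of -8.95 percentage points. For regions of 3000 to under 4000 bases the means were 88.6% and 81.1% (-7.57 points, 757 regions), for 4000 to under 6000 bases 90.1% and 84.4% (-5.74 points, 443 regions), and for 6000 bases or more 91.7% and 87.8% (-3.85 points, 161 regions). Each step of this order is over regions of the same 6 lists and has no test. In every length class sh-Kmt2d list 2 lay above the EV mean, with 85.4% under 1000 bases and 93.8% at 6000 or more. The lower sh-Kmt2d means came from lists 1 and 3, at 71.7% and 67.1% under 1000 bases and 84.9% and 84.8% at 6000 or more.

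Bases that a list left uncovered lay either beyond its outermost peaks or in gaps between its peaks. In broad regions the gaps took 4.10%, 3.36% and 4.28% of the merged bases in the EV lists and 8.73%, 3.36% and 10.6% in the sh-Kmt2d lists. The ends took 5.97%, 4.93% and 7.96% in EV, against 10.7%, 4.61% and 10.95% in sh-Kmt2d. In sh-Kmt2d lists 1 and 3, gaps and ends were thus both larger than in any EV list, and in sh-Kmt2d list 2 neither was. Group means were 3.91 ± 0.490% and 7.56 ± 3.75% for gaps (SD, n = 3 each, exact permutation p = 0.3) and 6.28 ± 1.54% and 8.76 ± 3.60% for ends (SD, n = 3 each, exact permutation p = 0.4). In the other shared regions gaps were rarer, at 0.903% to 2.09% in EV and 1.84% to 4.63% in sh-Kmt2d, and ends took more, at 11.3% to 14.5% in EV and 10.96% to 25.5% in sh-Kmt2d.

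**Figure D3:**
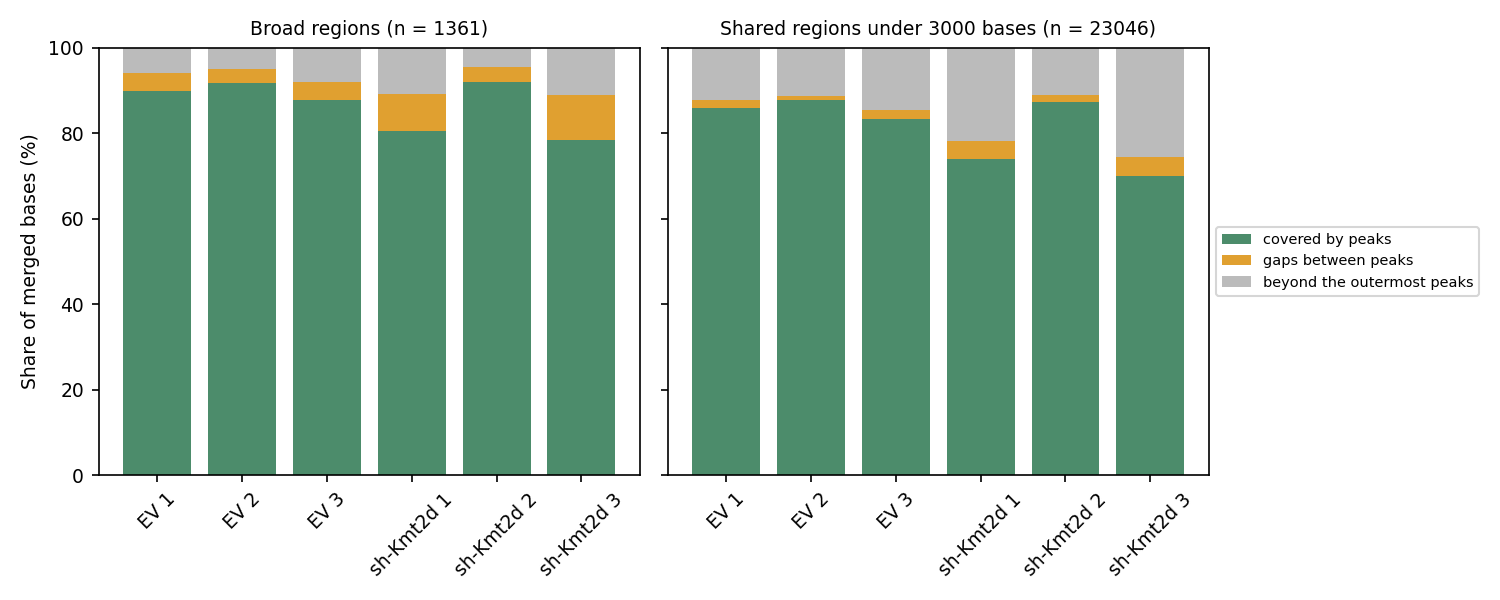
Share of merged bases (y axis, percent) that each list covered, left in gaps between its peaks or left beyond its outermost peaks, in broad regions and in other shared regions. In broad regions sh-Kmt2d lists 1 and 3 covered 80.5% and 78.5%, and the other 4 lists between 87.8% and 92.0%.

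The uncovered bases of sh-Kmt2d lists 1 and 3 were largely at the same places. They shared 836935 uncovered bases, which was 72.2% of those of list 1 and 65.2% of those of list 3. Of the 600029 bases that EV list 1 left uncovered, 71.7% were also uncovered in sh-Kmt2d list 1, and of the 474808 that sh-Kmt2d list 2 left uncovered, 87.1% were also uncovered in sh-Kmt2d list 3. The overlap was smaller for EV list 2, of whose 493534 uncovered bases 54.2% were also uncovered in sh-Kmt2d list 1, 67.2% in sh-Kmt2d list 3 and 44.5% in EV list 3.

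The gaps appear again in the number of peaks. A broad region was held in a mean of 1.72, 1.51 and 1.69 peaks in the EV lists and of 2.16, 1.60 and 2.27 in the sh-Kmt2d lists, or 1.64 ± 0.117 against 2.01 ± 0.359 (SD, n = 3 each, exact two-sided permutation p = 0.3). A single peak held the region in 51.3%, 64.7% and 53.1% of cases in EV and in 32.5%, 57.5% and 27.8% in sh-Kmt2d. The groups overlapped through sh-Kmt2d list 2. After Benjamini-Hochberg adjustment over the 9 measures per list, the exact permutation p was 0.4 for each of them. In 176 regions (12.9%) all 6 lists had a single peak, and in 138 (10.1%) none had.

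**Figure D4:**
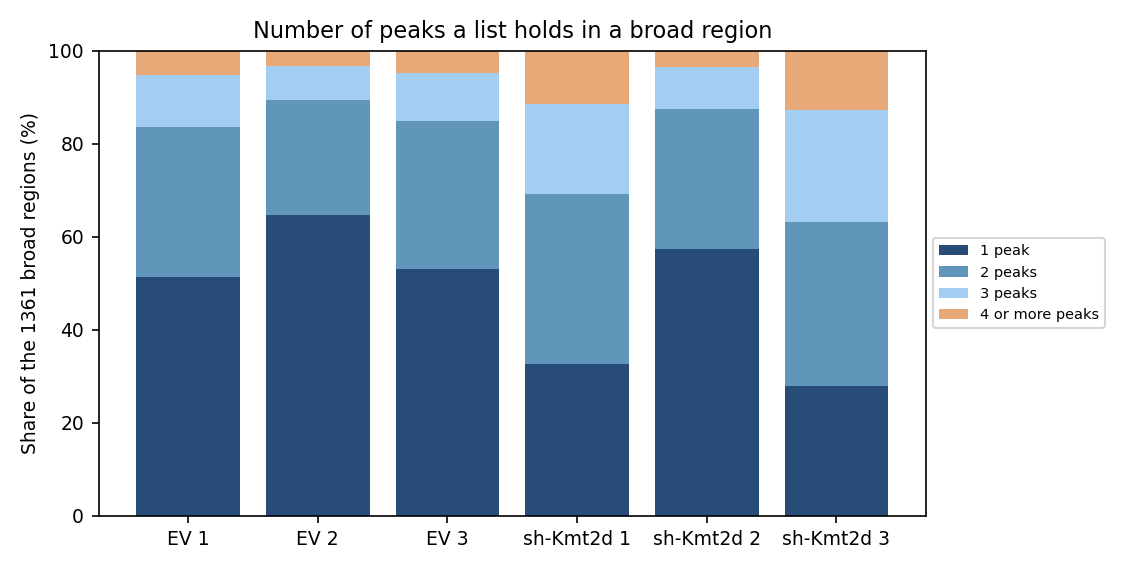
Share of the 1361 broad regions (y axis, percent) that each list held in 1 peak or in several (stacked classes by number of peaks). Single peaks make up 27.8% to 32.5% in sh-Kmt2d lists 1 and 3 and 51.3% to 64.7% in the other 4 lists.

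Region by region, every sh-Kmt2d list had more peaks than every EV list in 40 broad regions (2.94%), against 0.897% of all shared regions, and fewer in 8 (0.588%), against 0.127%. The other shared regions more often had a single peak in a list (81.0% to 94.7% of them), which leaves less room for such a difference. A strongly broken region was chr8:87223305-87232452 (9147 bases), which had the second most peaks, 35. It was held in 5, 1 and 6 peaks in EV and in 9, 5 and 9 in sh-Kmt2d, with 8371, 9048 and 7127 bases covered in EV and 5447, 7395 and 4458 bases in sh-Kmt2d. In both measures sh-Kmt2d list 2 lay within the range of the EV lists.

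The rule was also applied to the lists of each vector alone. The 3 EV lists gave 1216 broad regions and the 3 sh-Kmt2d lists 939. Of the EV regions 862 (70.9%) overlapped a broad region of sh-Kmt2d, and of the sh-Kmt2d regions 863 (91.9%) overlapped one of EV. Of the 354 that did not, 353 were listed in all 3 sh-Kmt2d lists, as shorter regions. So almost every region that was broad in EV alone was present in sh-Kmt2d below 3000 bases, not missing. With 2 lists of a vector the counts were 973 to 1131 for EV and 890, 580 and 922 for sh-Kmt2d without list 1, 2 and 3, so that the sh-Kmt2d count was lowest without list 2. Among the 1361 regions, 857 (63.0%) reached 3000 bases in both vectors alone, 353 (25.9%) in EV only, 75 (5.51%) in sh-Kmt2d only and 76 (5.58%) only when all lists were joined.

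Overlap between pairs of lists within broad regions did not separate the vectors. The Jaccard index, the bases covered by both lists divided by those covered by either, was 0.863 to 0.897 for the 3 pairs of EV lists, 0.832 to 0.850 for the 3 pairs of sh-Kmt2d lists and 0.802 to 0.898 for the 9 pairs across. The highest value across vectors was above that of any pair within sh-Kmt2d.

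To compare single regions, log2 covered bases were centred on each list's median over all 24407 shared regions (996, 1021 and 966 bases in EV, 856, 1009 and 806 in sh-Kmt2d) and fitted with limma. No broad region passed an adjusted p under 0.05, higher or lower in sh-Kmt2d (0 of 1361 each), and none of all shared regions did (0% of 24407 in either direction). At an unadjusted p under 0.05, 143 broad regions (10.5%) were higher in sh-Kmt2d, against 5.83% of all shared regions, and 66 (4.85%) were lower, against 5.63%. These counts moved with the measure. For bases as listed 24 were higher (1.76%, against 0.848% of all shared regions) and 143 lower (10.5%, against 9.28%). For the longest single peak of a list the numbers were 95 (6.98%, against 5.10%) and 90 (6.61%, against 5.15%), and without the intensity trend 75 (5.51%, against 5.15%) and 47 (3.45%, against 5.30%). Without sh-Kmt2d list 2, 420 of 1274 broad regions were higher (33.0%, against 13.4%) and 107 lower (8.40%, against 10.3%). Leaving out any other list gave fewer, with 64 to 104 higher (4.89% to 8.03%, against 3.09% to 4.74%) and 34 to 52 lower (2.60% to 3.92%, against 3.04% to 4.97%). Centred values of the groups did not overlap in 201 broad regions that were higher in sh-Kmt2d (14.8%, against 11.3% of all shared regions) and in 85 that were lower (6.25%, against 7.19%).

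The direction of the typical difference depended on the centring. The median log2 difference of broad regions, sh-Kmt2d minus EV, was 0.08 with centring and -0.09 with bases as listed, while the median of all shared regions was 0.04 and -0.13. In both scalings the median of the broad regions was thus slightly above that of all shared regions. Centring gave a positive difference even where all lists filled a region almost fully. At chr13:21258599-21262030 the difference was 0.16 with centring and -0.007 as listed. The part of this shift in the counts of higher regions was not tested. With bases as listed, the groups did not overlap in 49 broad regions higher in sh-Kmt2d (3.60%, against 1.93%) and in 178 lower (13.1%, against 14.0%).

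**Figure D5:**
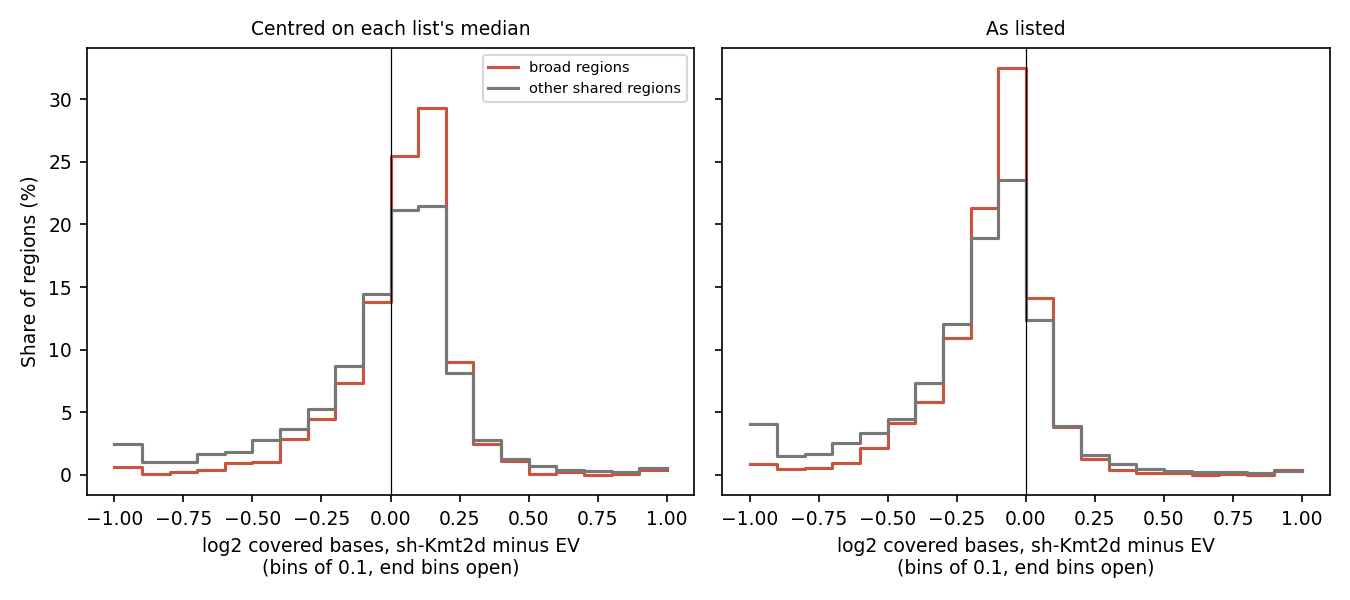
Distribution of the log2 difference in covered bases, sh-Kmt2d minus EV, over broad regions and over the other shared regions (y axis, percent of regions), with bases centred on each list's median and as listed. The medians of broad and of all shared regions are 0.08 and 0.04 with centring and -0.09 and -0.13 as listed.

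The 5 broad regions of smallest p are given with their values, since none passed. In chr8:122306874-122310520 (3646 bases) the EV lists covered 3502, 3041 and 3436 bases and the sh-Kmt2d lists 1805, 2161 and 1777 (log2 difference -0.63 ± 0.08, SE; limma adjusted p = 0.183). Every sh-Kmt2d list lay below every EV list. Without EV list 3 the joined region broke up, and for the piece then compared the difference was -0.07. With only peaks above the lower quartile of score, the difference at this place was -0.25 (limma adjusted p = 0.588). In chr15:50718513-50722652 (4139 bases) the order was the opposite, with 1932, 2528 and 2525 bases in EV and 3812, 4042 and 3591 in sh-Kmt2d (0.89 ± 0.12, SE; limma adjusted p = 0.183).

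The region chr6:22299244-22302527 (3283 bases) was covered for 2816, 2306 and 3283 bases in EV and for 1179, 1214 and 840 bases in sh-Kmt2d (-1.22 ± 0.17, SE; limma adjusted p = 0.186). Here sh-Kmt2d list 2 lay with the other sh-Kmt2d lists. EV list 3 covered the whole region, so the length limit of the rule was met through the group in which coverage was higher. The part of this selection in the difference was not tested. With only peaks above the lower quartile of score, no shared region was left at this place to compare. In chr3:143860902-143868090 (7188 bases) the EV lists covered 4965, 5337 and 5268 bases and the sh-Kmt2d lists 6002, 6964 and 5884 (0.44 ± 0.06, SE; limma adjusted p = 0.187). In chr8:120050110-120055433 (5323 bases) they were 4612, 5323 and 4311 in EV, against 2776, 3363 and 2354 in sh-Kmt2d (-0.59 ± 0.09, SE; limma adjusted p = 0.210). In all 5 regions the groups did not overlap.

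The largest difference of any broad region was at chr2:61568422-61571712 (3290 bases), named after its values were seen. Its lists covered 353, 157 and 1410 bases in EV and 2546, 3227 and 3058 in sh-Kmt2d (log2 difference 2.94 ± 0.74, SE; limma adjusted p = 0.360). Only 75 bases were common to all lists. The signal of its highest peak was at percentiles 20.7 to 23.4 in the EV lists and 46.2 to 55.2 in the sh-Kmt2d lists. Both coverage and signal rank were thus higher in all 3 sh-Kmt2d lists. The EV lists together covered too few bases to reach the length limit of the rule, which sh-Kmt2d list 2 reached alone. The region thus met the limit through the group in which its coverage was higher. The part of this selection in the difference was not tested. With only peaks above the lower quartile of score, no shared region was left at this place either.

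Leaving out sh-Kmt2d list 2, which resembled the EV lists in coverage and in peak number, gave the only calls among broad regions. With the rule applied to the other 5 lists, limma called 1 of 1274 broad regions higher and 3 of 1274 lower in sh-Kmt2d. Among all 24598 shared regions of those lists, 4 were called higher and 100 lower. One of them, chr12:113854913-113859186 (4273 bases), was covered for 4099, 4099 and 4130 bases by the EV lists and for 1683 and 1792 bases by sh-Kmt2d lists 1 and 3 (-0.98 ± 0.07, SE; limma adjusted p = 0.0347). The left-out list covered 3839 bases of it, and with all 6 lists the log2 difference was -0.70 (limma adjusted p = 0.414). The other lower regions were chr13:37916876-37920451 (-0.73, limma adjusted p = 0.0426) and chr4:63154196-63157638 (-0.46, limma adjusted p = 0.0496), and the higher one was chr3:106347337-106350393 (0.49, limma adjusted p = 0.0496). At chr4:63154196-63157638 the list that was left out covered 2768 bases, against 2771 to 2962 in EV and 1822 and 1666 in the other sh-Kmt2d lists. Leaving out each list in turn was planned, but this list was also the one that stood apart from its group, so these calls describe the 5 lists that were kept.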

How the data were processed

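The 6 ChIP libraries came as 1 peak list each, without a header, in mm9 coordinates per the submitters' processing notes. The deposited lists hold for each peak a start, an end, a score, a signal and a further position inside the peak, all left unlabelled by the authors and read from the values. Peak caller, threshold, input control and sequencing depth were not given in the sources used here, so score and signal were used only to rank or filter peaks within a list. Coordinates are printed as listed. Every listed peak was at least 99 bases long, and peaks of a list lay at least 101 bases apart. The RNA tables hold counts per gene deposited by the authors (HTSeq 0.6.0 in the submitters' processing notes). CPM was computed from the 37583 gene rows. The 5 summary rows, 50.6% to 77.2% of alignments, were left out. Chromosomes of 10168 of 10684 expressed genes came from a RefSeq table of GRCm38.p6, and no other build was mixed with mm9.

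Regions were built in Python 3.11.15 (pandas 2.3.3, numpy 2.4.6). Covered bases were compared with limma 3.58.1 in R 4.3.3 (log2, centred on each list's median, intensity trend, two-sided, Benjamini-Hochberg adjusted p under 0.05 over 24407 regions), after a trial on simulated data. Single measures per list were compared by exact two-sided permutation with scipy 1.17.1, and adjusted over 9 measures. Groups follow the vector in the labels, and list numbers follow sample order. Named regions are the 10 longest, the 5 of smallest p (as none passed) and the 5 with most peaks. The 5 with the largest core and 3 on either side of the limit are named as well. So are the largest groups and the regions called without sh-Kmt2d list 2. Others are said to have been named after their values were seen. The regions, marker lists and tests were chosen with earlier results of these data known. RNA of genes at broad regions was not analysed here, because regions were not joined to genes. One marker gene of the B cell list is not reported here and was left out of its count.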

Additional observations from a re-analysis of the deposited data

Results flagged for a closer look

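In the RNA libraries that served as a check of the labels, 4 of 14 tested groups of libraries held 1 library far from the rest by Dixon's criterion at the 95% level, which chance meets in about 1 in 20 groups. Kmt2d stood at 225.1 CPM in sh-Kmt2d RNA replicate 3 and at 5.231 to 61.43 CPM in the other 4. The summed T cell markers came to 329.6 CPM in sh-Kmt2d RNA replicate 4 and to 183.5 to 220.4 CPM in the others. Most of the sum in replicate 4 was Lck (233.3 CPM) and Cd3g (70.63 CPM). In EV RNA replicate 4 the summed neutrophil markers came to 159.6 CPM, against 6.466 to 12.59 CPM, and the summed erythroid markers to 318.2 CPM, against 12.79 to 56.59 CPM. These libraries share titles with sh-Kmt2d list 1, sh-Kmt2d list 3 and EV list 3.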

How the results depend on the processing

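The number of broad regions followed the length limit, with 4024 regions at 2000 bases, 295 at 5000 and 532 when the core itself had to reach 3000. It was 1309 with only peaks above the lower quartile of score, 1324 when peaks had to overlap by 100 bases, and 1180 to 1354 when 1 list was left out. The median log2 difference of the broad regions turned from 0.08 to -0.0899 without centring and to -0.000465 with the longest single peak. Calls among broad regions ranged from 0 to 4 when a list was left out, the 4 coming without sh-Kmt2d list 2, and were 0 under the other settings. Over the same omissions, the difference between vectors ran from -0.574 to -0.212 Mb for covered bases, from 0.727 to 1.56 percentage points for the share and from 0.238 to 0.603 for peaks per region, so none changed direction. The score filter for these 3 measures was added after the data were seen. RNA of genes in broad regions was not run. No paired analysis was possible because the labels give no replicate numbers that pair lists of the 2 vectors. Without known depth, a shorter region and a less deeply sequenced library cannot be told apart.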

Other observations

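The rule leaves out the sex chromosomes. On chromosome X, 40 joined regions held a peak of every list and reached 3000 bases, and they entered none of the comparisons above.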
